A study of Mus musculus with 12 samples.

Results

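Cell cycle and proliferation genes were examined in the livers of mouse pups at postnatal day 2 (P2), 6 *Ppara*-/- and 6 *Ppara*+/+. The 44 listed genes encode the machinery that copies DNA and divides the cell. Each gene was read from the probe sets that name it and no other gene, taking the one with the highest mean over the 12 arrays. This gave values for 43 of the 44 genes, among 19938 genes measured in the series. Of these, 20 act in G1 and S phase and 23 in mitosis. *Ccnb1*, a mitotic cyclin, is named by no probe set in the annotation used here and is not analysed.

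*Ppara* encodes a nuclear receptor that is activated by lipids and drives fatty acid catabolism in the liver. Heterozygous mice were intercrossed, so that *Ppara*+/+ and *Ppara*-/- pups could come from the same litter, and litters of 6 to 8 pups were used. Each genotype holds 3 males and 3 females, and each array holds whole liver RNA of 1 pup. Pups of both genotypes were suckling, and the labels name no drug or diet. The labels give the strain as SV129, whereas the methods describe a C57BL/6 background. The *Ppara* deletion is carried by the whole animal and is not limited to hepatocytes. RNA came from 3 litters per genotype with an integrity number above 8, but the labels do not give the litter of a pup. No term for litter could be fitted, and the p-values measure only how pups of a group vary. The arrays were Affymetrix Mouse Gene 1.0 ST, summarised by the authors as log2 signal with the robust multi-array average (RMA).

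In G1, D-type cyclins bind Cdk4 and Cdk6, which releases E2F factors to switch on the genes of DNA synthesis. Origins are then licensed by Cdc6, Cdt1 and the Mcm helicase, and nucleotides are supplied by ribonucleotide reductase and thymidylate synthase. Later in the cycle, genes for spindle, kinetochore and cytokinesis proteins are switched on, often through promoter elements called CHR and CCAAT. In the newborn liver, hepatocytes still divide, and blood-forming cells that occupied the fetal liver are still present while they leave for the bone marrow.

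All 43 measured genes lay above the array medians on every array. Their means over the 12 arrays ran from 8.06 for *Ttk* to 12.55 for *Mki67*, and the lowest value on any array was 7.72, where array medians ran from 7.16 to 7.20. Arrays correlated with each other at 0.989 to 0.996. With 12 arrays, standard errors of a member's log2 change ran from 0.0346 to 0.103. *Ppara* itself was 11.16 ± 0.12 in *Ppara*+/+ and 10.27 ± 0.05 in *Ppara*-/- livers (SD, n = 6 each), a log2 change of -0.89 (adjusted p = 1.2e-06, limma). Whether its probe set lies in the deleted sequence is unknown here. The hepatocyte markers *Alb*, albumin, and *Trf*, transferrin, gave signals of 14.24 and 14.26, so the labelled tissue was present. *Ppara*+/+ female 7 stood apart from its group in markers of other cell types, and calls that rest on it are given with and without it.

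Across the cycle, *Ccnd1* was the only member that differed between genotypes at an adjusted p under 0.05, and it was higher in *Ppara*-/- livers. Every other member lay slightly below 0, by at most 0.22 log2 units, and none of these 42 passed the test over all probe sets. The median log2 change (*Ppara*-/- minus *Ppara*+/+) was -0.12 over the G1 and S phase genes and -0.12 over the mitotic genes, against -0.01 over all genes. The median was therefore alike in both phases. The share of members below 0 was 42 of 43, where 54.9% of all genes lay below 0. These members are expressed together in dividing cells, so they are not independent observations.

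**Figure D1:**
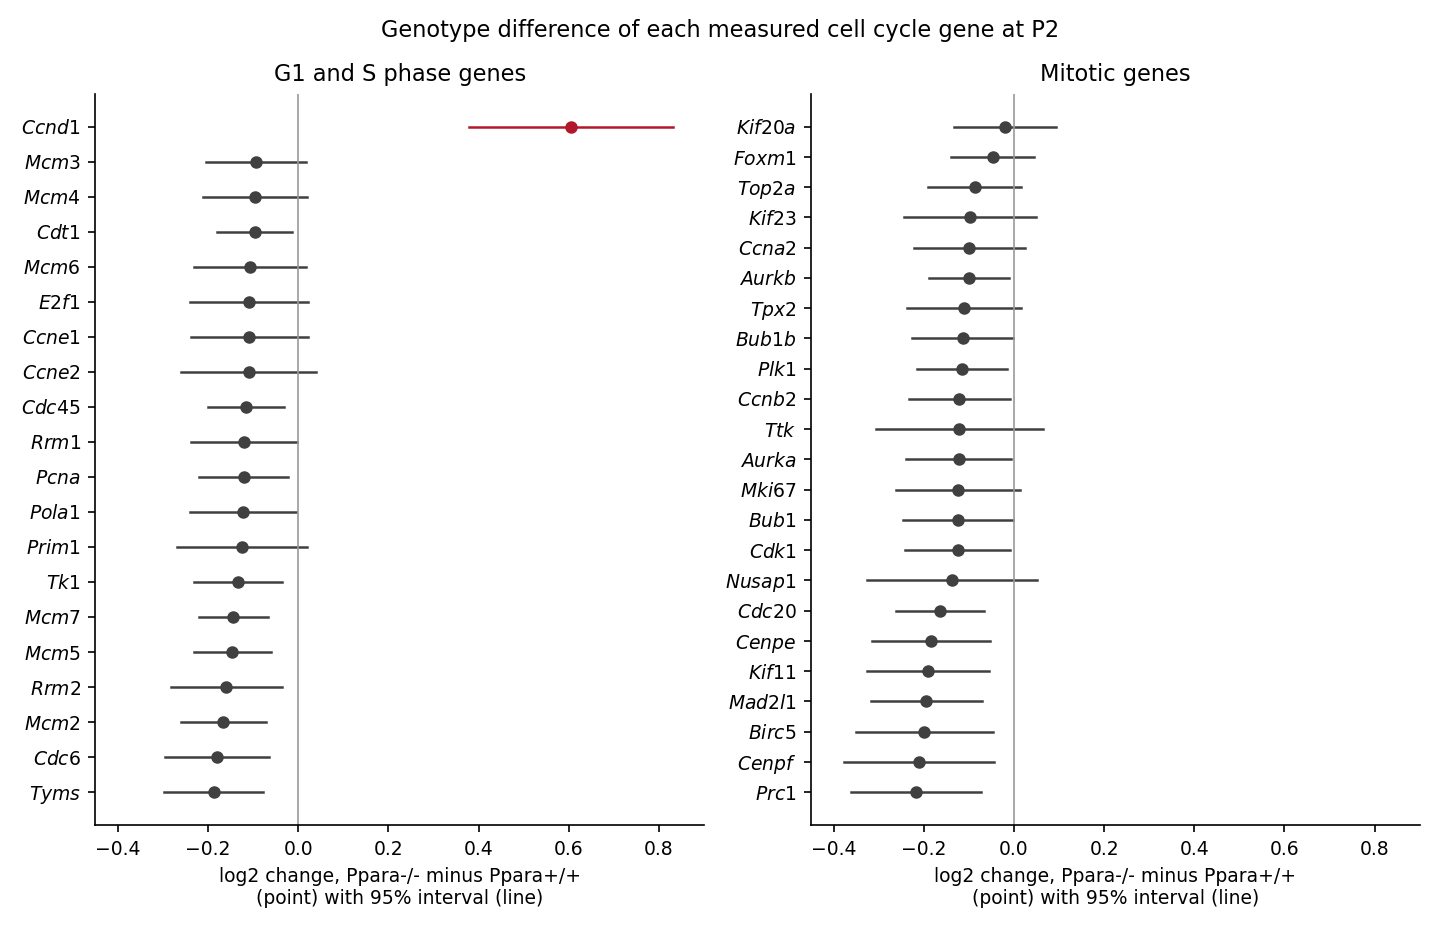
Log2 change (*Ppara*-/- minus *Ppara*+/+) of each measured gene, with its 95% interval from limma; the left panel holds the 20 G1 and S phase genes and the right panel the 23 mitotic genes. *Ccnd1*, at 0.60, is the only gene called (red), and the others lie between -0.22 and -0.02.

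Limma called 1 member higher, where 1.99% of all genes were called higher, and 0 lower, where 1.12% of all genes were called lower. At an unadjusted p under 0.05, 26 members were lower, 12 of them in G1 and S phase and 14 in mitosis, against 7.89% of all genes. With the exact Mann-Whitney test, adjusted over the whole table, every member whose genotypes did not overlap had an adjusted p of 0.0691. No lower value was possible there, so 0 members could be called in either direction. The 95% interval of the log2 change comes from the same statistic as the unadjusted limma p. It therefore lay below 0 for the same 26 members and is no separate result. For each of the 42 members other than *Ccnd1* the interval stayed within 1.3-fold in either direction, taken gene by gene. The same held for 18603 of all 19938 genes, so it is not particular to the members.

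Promoters of the members were compared for the motifs of cell cycle control, as a description of sequence that the choice of members did not use. They are those of RefSeq on GRCm38.p6, from 250 bases before to 50 bases after each gene's start. Of the 44 listed genes 36 have an entry, 17 of G1 and S phase and 19 of mitosis. *Ccnd1* has no entry, while *Ccnb1*, which has no signal value, is among the 19 mitotic genes with promoters. Those printed here belong to *Mcm2*, *Mcm5*, *Mcm7* and *Mad2l1*, the 4 members whose *Ppara*-/- signals all lay below the *Ppara*+/+ signals, and to *Prc1*, which had the largest change among the lower members. They lie at chr6:88898731-88899030 on the minus strand (*Mcm2*), chr8:75109259-75109558 on the plus strand (*Mcm5*), chr5:138171834-138172133 on the minus strand (*Mcm7*), chr6:66534971-66535270 on the plus strand (*Mad2l1*) and chr7:80294201-80294500 on the plus strand (*Prc1*). Capitals mark E2F, CCAAT and CHR letters on either strand.
Mcm2: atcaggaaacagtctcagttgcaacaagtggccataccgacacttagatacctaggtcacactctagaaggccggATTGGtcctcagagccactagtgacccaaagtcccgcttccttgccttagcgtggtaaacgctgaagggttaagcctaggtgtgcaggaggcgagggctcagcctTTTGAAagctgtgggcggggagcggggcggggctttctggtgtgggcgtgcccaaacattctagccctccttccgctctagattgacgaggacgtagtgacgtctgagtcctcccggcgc
Mcm5: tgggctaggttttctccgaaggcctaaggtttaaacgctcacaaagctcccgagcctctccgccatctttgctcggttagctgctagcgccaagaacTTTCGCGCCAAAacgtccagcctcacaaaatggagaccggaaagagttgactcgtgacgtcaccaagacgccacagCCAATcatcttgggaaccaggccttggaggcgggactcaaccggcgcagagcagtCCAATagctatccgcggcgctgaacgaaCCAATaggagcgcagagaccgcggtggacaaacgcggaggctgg
Mcm7: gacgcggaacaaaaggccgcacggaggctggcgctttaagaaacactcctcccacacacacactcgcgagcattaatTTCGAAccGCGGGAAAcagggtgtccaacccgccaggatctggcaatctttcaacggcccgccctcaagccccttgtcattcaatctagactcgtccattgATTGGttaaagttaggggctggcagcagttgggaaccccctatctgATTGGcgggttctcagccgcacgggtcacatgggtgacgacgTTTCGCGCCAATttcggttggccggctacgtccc
Mad2l1: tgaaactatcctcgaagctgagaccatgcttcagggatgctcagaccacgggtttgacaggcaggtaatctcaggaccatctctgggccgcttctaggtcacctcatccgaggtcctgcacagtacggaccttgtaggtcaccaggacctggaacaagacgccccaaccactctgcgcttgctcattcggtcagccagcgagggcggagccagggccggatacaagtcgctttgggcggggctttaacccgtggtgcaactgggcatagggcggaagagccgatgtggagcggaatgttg
Prc1: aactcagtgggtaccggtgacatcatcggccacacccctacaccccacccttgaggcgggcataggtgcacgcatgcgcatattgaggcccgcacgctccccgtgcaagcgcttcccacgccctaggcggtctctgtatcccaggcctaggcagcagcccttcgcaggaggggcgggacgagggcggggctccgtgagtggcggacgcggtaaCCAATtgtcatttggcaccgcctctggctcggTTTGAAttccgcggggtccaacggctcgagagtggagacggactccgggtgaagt

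The E2F letters searched were TTTCCCGC, TTTGGCGC, TTTGCCGC and TTTCGCGC, those of CHR were TTTGAA and TTCGAA, and the third motif was CCAAT, each on both strands. In the *Mcm5* promoter E2F matches on opposite strands overlap, 153 and 149 bases before the start. In that of *Mcm7* an E2F match begins 16 bases after the start and shares bases with a CCAAT. The *Mcm2* promoter holds no E2F match, and its CCAAT, read on the other strand, and its CHR begin 175 and 70 bases before the start. In that of *Prc1* a CCAAT and a CHR begin 37 and 5 bases before the start. The *Mad2l1* promoter holds none of these letters. *Mcm7* and *Prc1* each have a second start in the table, and the second *Mcm7* promoter holds no E2F match.

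A gene was counted where any of its promoters held a match. E2F letters stood in 7 of 17 G1 and S phase genes (41.2%), those of *Cdc6*, *Cdt1*, *Mcm3*, *Mcm5*, *Mcm6*, *Mcm7* and *Pola1*. They stood in 1 of 19 mitotic genes (5.26%), that of *Cdk1*, and in 2.6% of all 27025 genes in the table. CHR letters stood in 14 of 19 mitotic genes (73.7%), 3 of 17 G1 and S phase genes (17.6%) and 21.7% of all genes. CCAAT stood in 16 of 19 (84.2%), 11 of 17 (64.7%) and 41.1%. The listed genes with a promoter entry thus differ by phase in these letters. Over all measured members, a different set, the median changes between genotypes were both -0.12. A match is a description of letters and does not show that a factor binds there.

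**Figure D2:**
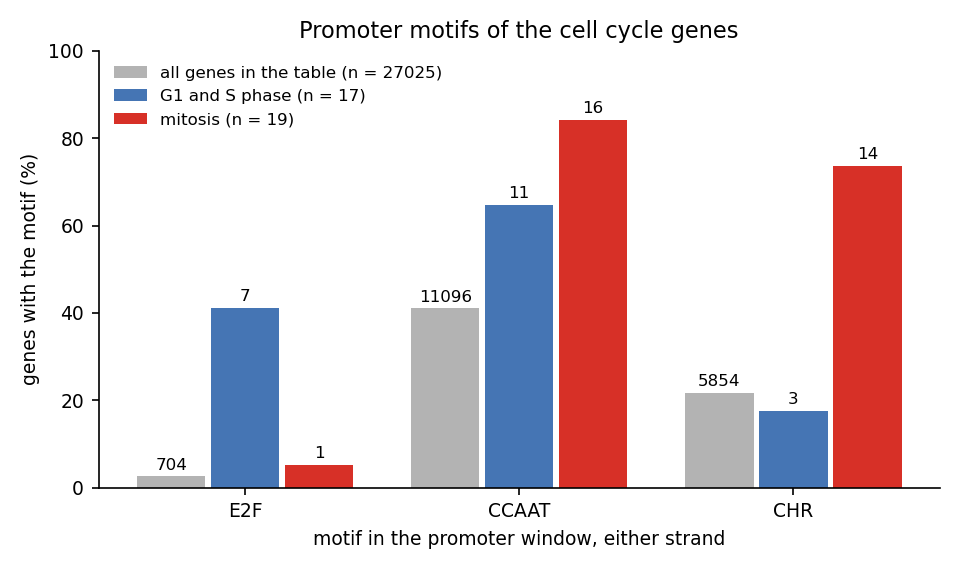
Share of genes (%) with E2F, CCAAT or CHR letters on either strand of a promoter of 300 bases, for all genes in the table, the 17 G1 and S phase genes and the 19 mitotic genes with an entry; numbers above the bars are genes with a match. E2F letters stand in 41.2% of the G1 and S phase genes and CHR letters in 73.7% of the mitotic genes.

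*Ccnd1* encodes cyclin D1, the G1 cyclin that couples growth factor signals to entry into the cycle. In *Ppara*+/+ livers its log2 signal was 10.44, 10.52 and 10.30 in males 1 to 3 and 10.93, 10.31 and 10.20 in females 7 to 9. In *Ppara*-/- livers it was 11.05, 10.93 and 11.07 in males 4 to 6 and 11.12, 11.07 and 11.08 in females 10 to 12. The genotypes did not overlap, but only just. *Ppara*+/+ female 7, the highest of its group, lay just under *Ppara*-/- male 5, the lowest of its group, and both round to 10.93. The other 5 *Ppara*+/+ livers did not exceed 10.52. Across all genes, 2.88% had every *Ppara*-/- value above every *Ppara*+/+ value.

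The means of *Ccnd1* were 10.45 ± 0.26 in *Ppara*+/+ and 11.05 ± 0.06 in *Ppara*-/- livers (SD, n = 6 each). The log2 change was 0.60 (SE 0.103, 95% interval 0.38 to 0.83), or 1.52-fold, with an adjusted p of 0.00846 from limma. It was 0.60 in males and 0.61 in females, but *Ccnd1* was not called within either sex (adjusted p = 0.175 and 0.162, limma). Without *Ppara*+/+ female 7 the log2 change was 0.70 and the adjusted p 0.000146. With an exact Mann-Whitney test the adjusted p was 0.0691. Full separation of the genotypes could give no lower value in this table, so that test could not call *Ccnd1*.

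**Figure D3:**
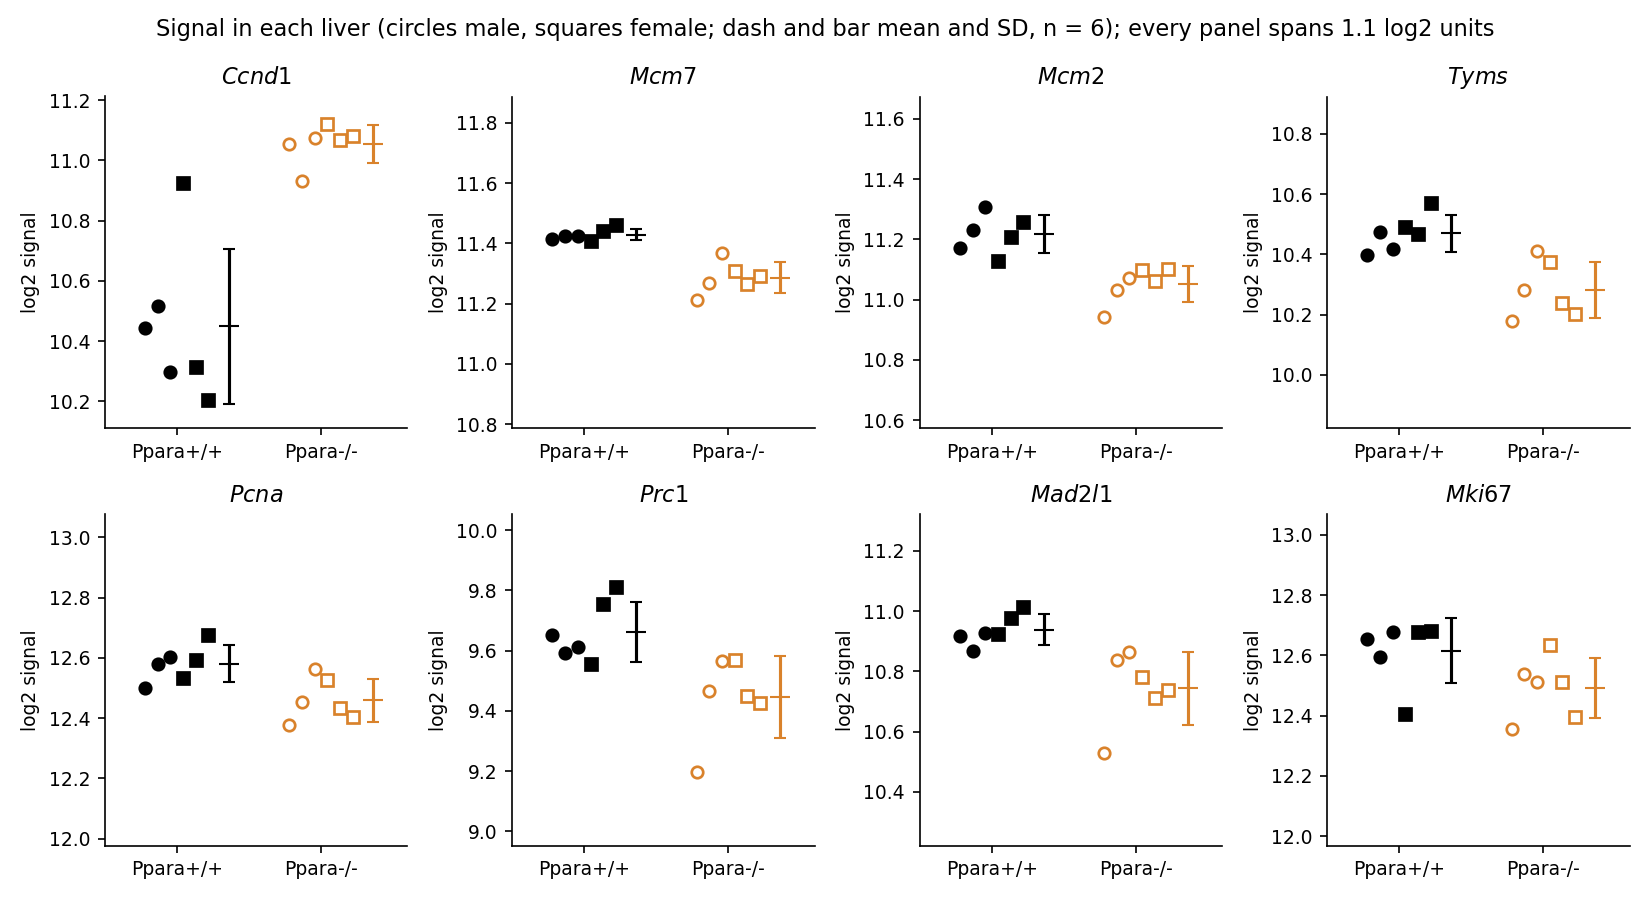
Log2 signal (vertical axis) in each liver for *Ccnd1*, 4 replication genes and 3 mitotic genes; filled points are *Ppara*+/+ and open points *Ppara*-/- livers, circles males and squares females, with mean and SD (n = 6) to the right. Each panel spans 1.1 log2 units; for *Ccnd1* the genotypes lie 0.60 apart, and for the other genes the *Ppara*-/- means are 0.12 to 0.22 lower.

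The *Mcm2* to *Mcm7* genes encode the ring-shaped helicase that unwinds DNA at replication origins, and *Mcm7* had the smallest standard error of all members. *Mcm7* ran from 11.41 through a median of 11.42 to 11.46 in *Ppara*+/+ and from 11.21 through 11.28 to 11.37 in *Ppara*-/- livers. *Mcm2* ran from 11.13 through 11.22 to 11.31 and from 10.94 through 11.07 to 11.10. *Mcm5* ran from 11.12 through 11.13 to 11.19 and from 10.89 through 11.02 to 11.08. In each of these genes every *Ppara*-/- liver lay below every *Ppara*+/+ liver. The same held for *Mad2l1*, so that 4 of 43 members were separated downward, against 1.43% of all genes. *Mcm5* and *Mcm7* are named because their genotypes did not overlap, which was seen in the values.

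The log2 change was -0.14 for *Mcm7* (SE 0.0346, adjusted p = 0.0575, limma), the smallest adjusted p among the lower members. It was -0.17 for *Mcm2* (SE 0.0428, adjusted p = 0.0755) and -0.15 for *Mcm5* (SE 0.0387, adjusted p = 0.0837). The other helicase genes, *Mcm3*, *Mcm4* and *Mcm6*, lay at -0.09, -0.10 and -0.11, and their genotypes overlapped. Near the threshold, the call depended on the fit. After quantile normalization *Mcm2*, *Mcm5*, *Mcm7* and *Tyms* were called lower, 4 members where 1.3% of all genes were called lower. Without *Ppara*+/+ female 7, *Mcm2*, *Mcm7* and *Kif11* were called lower, 3 members where 1.75% of all genes were. Without *Ppara*-/- male 6, *Mcm5*, *Mcm7* and *Tyms* were called lower, 3 members where 1.09% of all genes were.

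Members that supply nucleotides lay between -0.19 and -0.12. *Tyms* encodes thymidylate synthase, which makes the thymine nucleotide, and ran from 10.40 through 10.47 to 10.57 in *Ppara*+/+ and from 10.18 through 10.26 to 10.41 in *Ppara*-/- livers. Its highest *Ppara*-/- liver, male 6, lay just above its lowest *Ppara*+/+ liver, male 1, and the log2 change was -0.19 (SE 0.05, adjusted p = 0.0855). *Rrm1* and *Rrm2* encode the subunits of ribonucleotide reductase. *Rrm2* ran from 11.73 through 11.89 to 11.96 and from 11.53 through 11.72 to 11.80. *Rrm1* ran from 11.64 through 11.74 to 11.85 and from 11.49 through 11.64 to 11.72. The genotypes overlapped for both subunits, with log2 changes of -0.16 and -0.12 (adjusted p = 0.202 and 0.320). *Tk1*, thymidine kinase, has 2 probe sets of similar mean signal, 10.58 and 10.50, and they gave log2 changes of -0.13 and -0.03, so its size is uncertain.

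Among the genes that load and run the fork, *Cdc6*, which recruits the helicase to origins, ran from 9.27 through 9.35 to 9.46 in *Ppara*+/+ and from 9.04 through 9.17 to 9.29 in *Ppara*-/- livers. Its log2 change was -0.18 (SE 0.0525, adjusted p = 0.119), with a small overlap of the genotypes. *Pcna*, the sliding clamp of DNA polymerases, ran from 12.50 through 12.59 to 12.67 and from 12.38 through 12.44 to 12.56. Its log2 change was -0.12 (adjusted p = 0.228), and a second *Pcna* probe set gave -0.12. *Cdt1*, *Cdc45*, *Pola1* and *Prim1*, which license origins, activate the helicase and start DNA chains, lay between -0.13 and -0.10. The remaining G1 genes were *Ccne1* and *Ccne2*, cyclins of the G1 to S transition, and *E2f1*, a factor that switches on S phase genes. They lay at -0.11, -0.11 and -0.11, with intervals that held 0.

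*Prc1*, which bundles the microtubules of the central spindle, had the largest change among the lower members. It ran from 9.56 through 9.63 to 9.81 in *Ppara*+/+ and from 9.20 through 9.46 to 9.57 in *Ppara*-/- livers, a log2 change of -0.22 (SE 0.0658, adjusted p = 0.136). Only *Ppara*+/+ female 7 came within the *Ppara*-/- range. *Cenpf*, a kinetochore protein, ran from 9.23 through 9.38 to 9.54 and from 9.01 through 9.15 to 9.33, a log2 change of -0.21 (SE 0.0759, adjusted p = 0.216). Its genotypes overlapped in several livers. *Birc5*, or survivin, part of the chromosomal passenger complex, ran from 9.51 through 9.57 to 9.73 and from 9.20 through 9.40 to 9.56, a log2 change of -0.20 (SE 0.0696, adjusted p = 0.199). Its highest *Ppara*-/- values also lay inside the *Ppara*+/+ range.

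*Mad2l1* encodes a spindle checkpoint protein that holds cells before anaphase. It ran from 10.87 through 10.93 to 11.01 in *Ppara*+/+ and from 10.53 through 10.76 to 10.86 in *Ppara*-/- livers, without overlap. The log2 change was -0.19 (SE 0.0561, adjusted p = 0.114). The other checkpoint genes, *Bub1*, *Bub1b* and *Ttk*, lay at -0.12, -0.11 and -0.12. *Cdc20*, which activates the anaphase-promoting complex, lay at -0.16 (adjusted p = 0.0929).

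The probe sets of *Mki67*, *Ccna2* and *Ccnb2* gave the highest mean signals among the mitotic genes, and their genotypes overlapped. *Mki67*, the marker of cycling cells known as Ki-67, ran from 12.40 through 12.67 to 12.68 in *Ppara*+/+ and from 12.36 through 12.51 to 12.63 in *Ppara*-/- livers. *Ppara*+/+ female 7 was the low liver of its group and lay among the *Ppara*-/- values. The log2 change was -0.12 (95% interval -0.26 to 0.01, adjusted p = 0.386). *Ccna2*, cyclin A2, ran from 11.99 through 12.16 to 12.25 and from 11.93 through 12.03 to 12.20, a log2 change of -0.10 (adjusted p = 0.447). *Ccnb2*, cyclin B2, ran from 11.84 through 11.99 to 12.06 and from 11.76 through 11.84 to 11.98, a log2 change of -0.12 (adjusted p = 0.300). In both cyclins the genotypes overlapped over most of their range.

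The remaining mitotic members are motors, kinases and their partners. *Kif11*, the motor that pushes the spindle poles apart, lay at -0.19 (adjusted p = 0.166) and *Cenpe*, a kinetochore motor, at -0.18. The kinases *Cdk1*, *Plk1*, *Aurka* and *Aurkb* lay at -0.13, -0.12, -0.12 and -0.10. *Nusap1*, *Tpx2*, *Kif23* and *Top2a*, which act on spindle microtubules, cytokinesis and chromosome untangling, lay between -0.14 and -0.09. A second *Top2a* probe set, with a low mean signal of 4.93, gave 0.066 (SE 0.134). *Foxm1*, a factor that switches on mitotic genes, and *Kif20a*, a motor of cytokinesis, were closest to 0, at -0.05 and -0.02. *Kif20a* changed sign, to 0.014, without *Ppara*-/- male 4. No other member changed sign in any of the 22 alternatives, which include quantile normalization, median centring and leaving out each array.

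**Figure D4:**
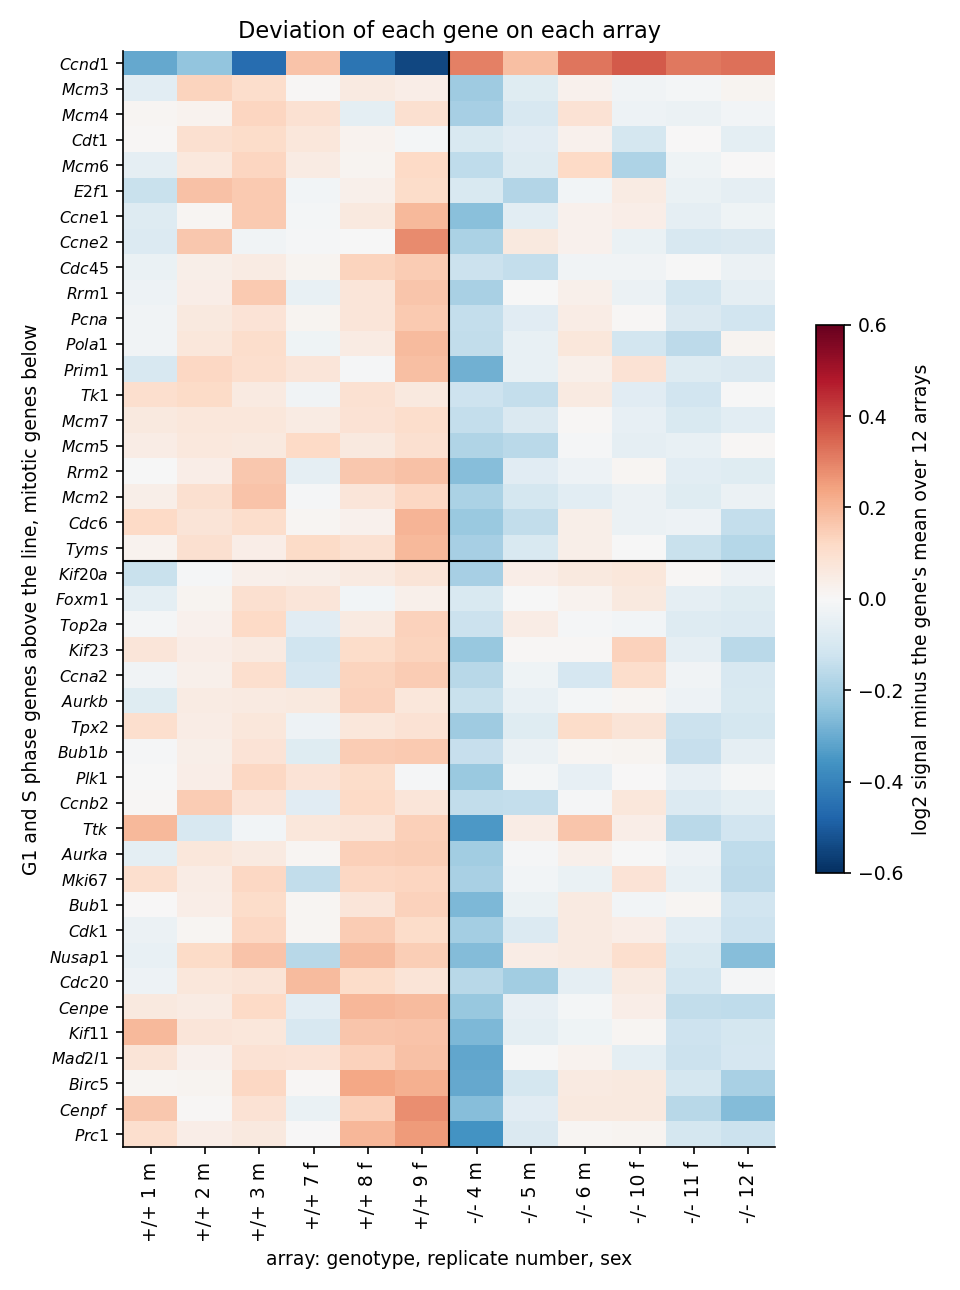
Deviation of each of the 43 genes (rows) from its mean over the 12 arrays (columns, by genotype, replicate number and sex), as log2 signal. *Ppara*-/- male 4 is low and *Ppara*+/+ female 9 high across most rows, while *Ccnd1* in the top row runs the other way.

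The members deviated together on most arrays. For each array, the median was taken over the genes of the difference between its log2 signal and the gene's mean over the 12 arrays. Over the G1 and S phase genes this median was -0.02, 0.07 and 0.10 in *Ppara*+/+ males 1 to 3 and 0.01, 0.06 and 0.14 in females 7 to 9. It was -0.19, -0.08 and 0.03 in *Ppara*-/- males 4 to 6 and -0.03, -0.06 and -0.04 in females 10 to 12. *Ppara*-/- male 6 lay above *Ppara*+/+ male 1 and female 7, so the genotypes overlapped.

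Over the mitotic genes the median was 0.00, 0.04 and 0.08 in *Ppara*+/+ males and 0.00, 0.13 and 0.14 in females. It was -0.21, -0.04 and 0.01 in *Ppara*-/- males and 0.04, -0.08 and -0.11 in females. Here *Ppara*-/- male 6 and female 10 overlapped the *Ppara*+/+ range. The genotype means were 0.06 ± 0.06 and -0.06 ± 0.07 for G1 and S phase, and 0.07 ± 0.06 and -0.06 ± 0.09 for mitosis (SD, n = 6 each). Over all genes the genotype means of this statistic were 0.0038 ± 0.0073 and 0.00083 ± 0.012. In both phases *Ppara*-/- male 4 was lowest and *Ppara*+/+ female 9 highest.

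*Ppara*-/- male 4 had the lowest value of all 12 arrays for 33 of the 43 members, and *Ppara*+/+ female 9 the highest for 21. In that *Ppara*-/- liver 42 members lay below their own mean. In *Ppara*-/- males 5 and 6 this held for 36 and 14 members, and in *Ppara*-/- females 10 to 12 for 18, 39 and 38. In *Ppara*+/+ livers it held for 3 to 5 members, except in male 1 with 23 and female 7 with 19. Without *Ppara*-/- male 4 the median log2 change was -0.10 for G1 and S phase and -0.09 for mitosis, so the direction did not rest on that liver.

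**Figure D5:**
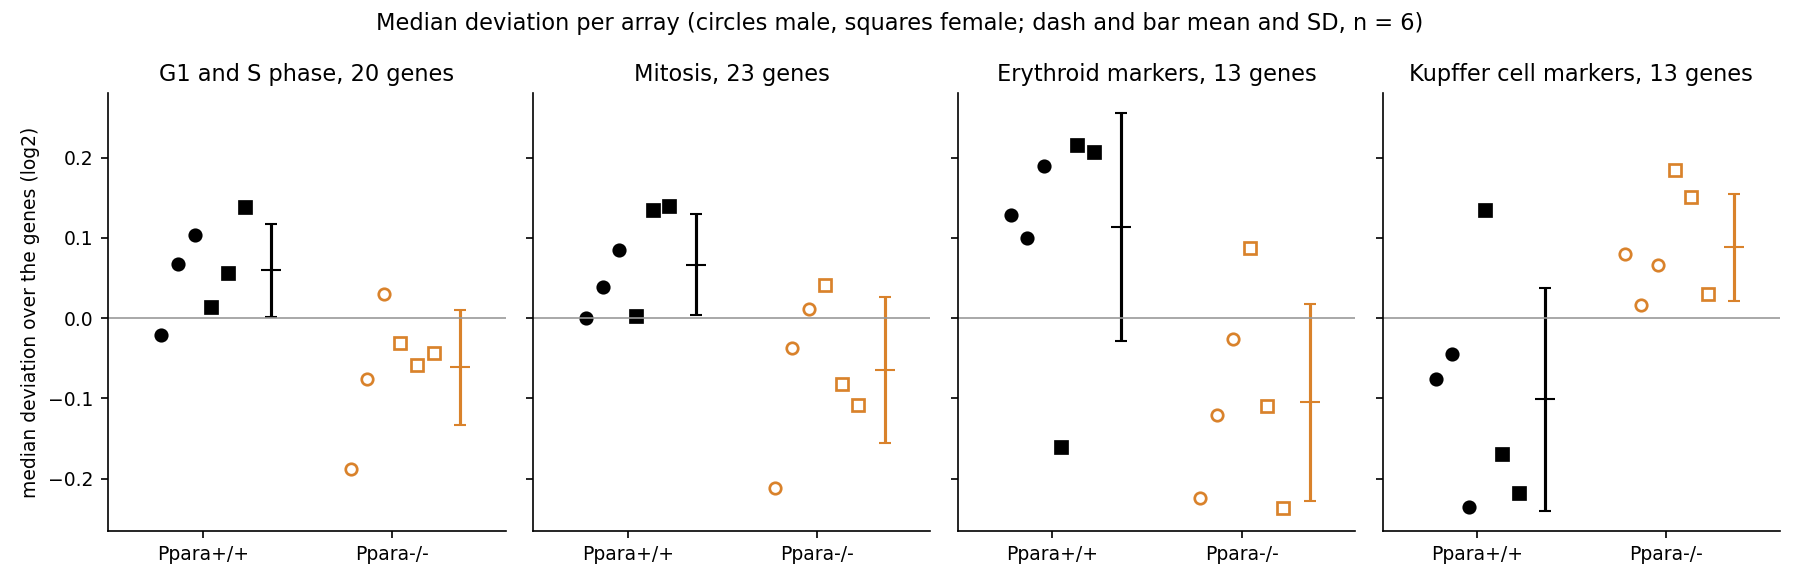
Median deviation per array (log2, vertical axis) for G1 and S phase genes, mitotic genes, erythroid markers and Kupffer cell markers; filled points are *Ppara*+/+ and open points *Ppara*-/- livers, circles males and squares females, with mean and SD (n = 6). *Ppara*+/+ female 7 lies apart from its group in both marker panels, at -0.16 and 0.14.

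Several lists of markers for other liver cells also lay to 1 side of 0. Erythroid markers, which mark red cell precursors that divide in the newborn liver, lay below 0 for all 13 measured of 19 listed, with a median log2 change of -0.18 and none called. Those of highest signal were *Slc4a1*, the red cell anion exchanger, at -0.15, and *Alas2*, the heme synthesis enzyme of red cells, at -0.18. The globin genes are read only by probe sets that name several genes and gave no value here. Median deviations of the erythroid list ran from -0.16 to 0.22 in *Ppara*+/+ and from -0.24 to 0.09 in *Ppara*-/- livers. *Ppara*-/- male 4, at -0.22, and female 12, at -0.24, were low, while female 10, at 0.09, was the highest of its group. *Ppara*+/+ female 7 was the lowest of its group, at -0.16, and without it 5 erythroid markers were called lower, where 1.75% of all genes were.

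B lymphoid markers had a median of -0.15 over 9 of 10 listed, with none called, and those of highest signal were *Cd79b* at -0.15 and *Igll1* at -0.075. Their median deviations ran from -0.09 to 0.28 in *Ppara*+/+ and from -0.14 to 0.02 in *Ppara*-/- livers. *Ppara*+/+ female 7 was the highest, at 0.28, while females 8 and 9, at -0.08 and -0.09, lay within the *Ppara*-/- range. The median change without female 7 is not given here. Kupffer cell markers, of the resident macrophages, lay above 0 for all 13 genes, with a median of 0.19. The list holds 14 symbols because it also gives *Emr1*, an older name of *Adgre1*. The Kupffer markers of highest signal were *Lyz2* at 0.07 and *C1qb* at 0.18. Median deviations of the Kupffer list ran from -0.24 to 0.14 in *Ppara*+/+ and from 0.02 to 0.19 in *Ppara*-/- livers. Endothelial markers lay above 0 for all 12, with a median of 0.13, and those of highest signal were *Lyve1* at 0.11 and *Cdh5* at 0.24. *Flt1*, a VEGF receptor of the endothelium, was called higher (0.17, adjusted p = 0.0293, limma), a call that held in 4 of 12 fits that left out an array. No Kupffer marker was called with all 12 arrays. Without *Ppara*+/+ female 7, 5 Kupffer and 3 endothelial markers were called higher, where 3.6% of all genes were.

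Stellate markers had a median of 0.09 over 11, with none called, and those of highest signal were *Dcn* at 0.10 and *Reln* at 0.09. Granulocyte markers had a median of 0.07 over 14, and *Ngp*, that of highest signal, lay at 0.08. *Lcn2*, an iron-trapping protein that hepatocytes also make, was called higher (0.23, adjusted p = 0.0193, limma), in 9 of 12 fits that left out an array. Cholangiocyte markers had a median of 0.07 over 5 of 7, megakaryocyte markers of 0.05 over 5 of 8 and hepatocyte markers of 0.02 over 11 of 12, with none called. Their markers of highest signal lay at 0.04 for *Sox9* and 0.07 for *Krt19*, at 0.05 for *Ppbp* and -0.006 for *Gp9*, and at 0.014 for *Trf* and -0.0034 for *Alb*. The part of these cell types in the values of the cell cycle genes was not tested, and in whole liver fewer cells of a type and less RNA per cell cannot be told apart.

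The sexes were compared with 6 arrays each. Between males and females 0 members were called, where 0.0401% of all genes were called. In the same limma fit 34 of 43 members lay below 0 in males minus females, with a median of -0.019, where 51.3% of all genes lay below 0. Of the members 1 had an unadjusted p under 0.05, against 2.78% of all genes. For the interaction of genotype and sex 0 members were called in limma, where 0% of all genes were called. At an unadjusted p under 0.05 there were 0 members, against 1.79% of all genes. The median change was -0.13 within males, with 41 members below 0, and -0.13 within females, with 42 below 0. Of all genes, 54% lay below 0 within males and 53.1% within females.

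Other genes of the cell cycle were read from lists that hold no member. Of 30 other replication genes, such as replication factor C, 29 were measured, 28 lay below 0 and none was called, with a median of -0.11. Of 35 other mitotic genes, 34 were measured and all lay below 0, with a median of -0.14 and none called; they ran from -0.33 to -0.02. Of 27 other cyclins, kinases and E2F factors, 17 lay below 0, with a median of -0.05 and a range of -0.32 to 0.15. *Mybl2*, or B-Myb, which works with the complex that switches on mitotic genes, was called lower. It was 9.98 ± 0.09 in *Ppara*+/+ and 9.66 ± 0.12 in *Ppara*-/- livers (SD, n = 6 each), a log2 change of -0.32 (SE 0.0626, adjusted p = 0.0205, limma). That call held in 3 of 12 fits that left out an array, with adjusted p from 0.00502 to 0.0593. The partners and relatives of cyclin D1 were not called: *Ccnd2* lay at 0.04, *Ccnd3* at -0.09, *Cdk4* at -0.00064 and *Cdk6* at 0.11.

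Of 24 genes listed with the brakes of the cycle, 22 were measured and 14 lay below 0, with a median of -0.07 and none called. The list also holds *Mdm2* and *Wdr62*, which are not brakes. The brakes *Cdkn1a* and *Trp53* gave no value here. Of 22 mitogens, receptors and other growth signalling genes, 21 were measured and 4 lay below 0, with a median of 0.05. Among them 2 were called higher, where 1.99% of all genes were. *Egfr*, the receptor for epidermal growth factor, was 11.52 ± 0.09 in *Ppara*+/+ and 11.78 ± 0.01 in *Ppara*-/- livers (SD, n = 6 each). Its log2 change was 0.26 (SE 0.0431, adjusted p = 0.00691, limma), and it was called in 12 of 12 fits that left out an array. *Tgfbr2*, a receptor for transforming growth factor beta, which restrains hepatocyte division, rose by 0.17 on the log2 scale (adjusted p = 0.0341). That call held in 3 of 12 such fits.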

How the data were processed

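Whole liver RNA of 12 pups at P2 was measured on Affymetrix Mouse Gene 1.0 ST arrays. The authors deposited log2 signals normalized across arrays with RMA (version not given in the sources used here), and these were taken as they stand. Fetal liver arrays are not analysed here. Arrays have no read depth, and their number sets the precision.

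All 35556 probe sets were fitted with limma 3.58.1 in R 4.3.3 (linear model of genotype and sex, moderated by eBayes, 9 residual and 2.49 prior degrees of freedom). Benjamini-Hochberg adjustment ran over the whole table, and genes were called at an adjusted p under 0.05. Where several of the 21789 probe sets that name 1 gene read the same gene, the one with the highest mean was used. Within-sex effects, their interaction and sex were fitted likewise. The code was tested on simulated data. Motifs were counted with Python 3.11.15.

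The members, lists, tests and naming rule were chosen with earlier results of these data known. Values are given for members called and, in each phase, for the 4 with the largest change and the 3 with the highest mean signal; other members are given by log2 change. From other lists, called genes are named, at most 3 per list and direction, with the 2 markers of highest signal of each cell type. Alternatives were dropping the sex term, fitting 4 groups, quantile normalization or median centring, removing dim probe sets (below the 40th percentile) or those not naming 1 gene, a robust trended variance, weighting arrays, an exact Mann-Whitney test, averaging a gene's probe sets, a minimum change of 1.3-fold, no adjustment of p, and omitting each array.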

Additional observations from a re-analysis of the deposited data

Results flagged for a closer look

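Of 90 groups of 6 arrays tested, 5 held an array far from the others of its group by Dixon's test. Chance gives about 1 in 20 for independent groups, but the members vary together, so this count cannot be judged against it. In *Ppara*-/- livers the arrays set apart included male 5 for *Ccnd1*, at 10.93 with the nearest at 11.05. Male 4 was set apart for *Ccne1*, at 10.73 with the nearest at 10.92. Male 4 also stood apart for *Rrm2*, at 11.53 with the nearest at 11.71, and for *Plk1*, at 10.52 with the nearest at 10.69. In *Ppara*+/+ livers female 7 stood apart for *Mki67*, at 12.40 with the nearest at 12.60.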

How the results depend on the processing

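The direction of the median change was the same in every alternative run for it, from -0.15 to -0.10 for G1 and S phase and from -0.15 to -0.09 for mitosis. Of 946 comparisons of a member with an alternative, 910 kept direction and side of the threshold, 34 passed it only in the alternative, 1 lost it (*Ccnd1*, exact Mann-Whitney) and 1 reversed (*Kif20a*, 0.014 without *Ppara*-/- male 4, with -0.044 the lowest value when leaving out arrays). The number of members called lower, 0, became 1 without the sex term, 4 with quantile normalization and 5 without dim probe sets. It became 3 with probe sets of 1 gene only, 5 with a robust variance trend and 7 with array weights. With the mean of probe sets it was 3, and at an unadjusted p 26. Of all genes, 1.3% were called lower with quantile normalization and 7.89% at an unadjusted p. For the other fits in this list the share of all genes is not given here, so those counts are not a result about the members. Leaving out arrays gave 0 to 3, the latter without *Ppara*+/+ female 7 or *Ppara*-/- male 6. Most often called were *Mcm7*, in 9 of 22 alternatives, and *Mcm2* and *Tyms*, in 7 each. The number called higher, 1, became 0 with the exact Mann-Whitney test, which could call no member. Pathway genes are the 133 measured in the 5 lists of other replication, mitotic, cyclin, brake and growth signalling genes. Those called lower, 1, became 2 with quantile normalization and 0 to 6 when leaving out arrays, with 6 without *Ppara*+/+ female 7. Without that liver 1.75% of all genes were called lower. Pathway genes called higher, 2, became 1 to 2, where 1.99% of all genes were called higher in the main fit. In the 150 bases nearest the start, from 100 before it, E2F letters stood in 4 of 17 G1 and S phase genes and 0 of 19 mitotic genes. No paired analysis was possible because the labels do not give the litter of a pup. The causes were not tested.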
